A study of Mus musculus with 2 samples.

Results

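Oligodendrocyte precursors and the committed precursors that follow them were sought among single cells of mouse medulloblastoma after proton irradiation. Members were chosen by a rule on unique molecular identifiers (UMIs), the counted RNA molecules of a barcode. Barcodes with fewer than 500 detected genes or with over 10% of UMIs from mitochondrial genes were left out. A barcode then needed at least 3 UMIs summed over Pdgfra, Cspg4, Neu4, Gpr17, C1ql1 and Lhfpl3, and at least 1 UMI of Olig1 or Sox10. At most 3 UMIs of 6 myelin genes (Mog, Mag, Mobp, Cldn11, Opalin, Ermn) and at most 2 UMIs of C1qa, C1qb, Cldn5 and Col1a2 were allowed. The rule found 682 members among 18827 barcodes kept after the first step, 290 of 8461 after standard and 392 of 10366 after FLASH irradiation. Since the rule used these counts, the levels of these genes in members are a description.

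The mice were Math1-Cre;SmoM2fl/fl in both groups. Math1-Cre acts in cerebellar granule neuron precursors, where it switches on SmoM2, an activated Smoothened, and gives tumours of the Sonic hedgehog (SHH) type. 1 library of tumour tissue followed standard proton irradiation and 1 followed FLASH proton irradiation, in which protons arrive at a very high dose rate. The sample labels state 5 Gy and the series design 10 Gy, and this disagreement was not settled. How old the mice were, how many went into a library and how long after irradiation they were taken is not stated in these sources. An unirradiated library was not analysed here. The comparison asks how cells of this lineage differed between the 2 modes of delivery. With 1 library per group there was no test and no replicate check, and every interval below is at 95% and covers counting error only.

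Oligodendrocyte precursors are the dividing glial cells that give rise to the myelinating cells of the brain. They respond to platelet-derived growth factor through the receptor Pdgfra and carry the proteoglycan Cspg4 (NG2). Olig1, Olig2 and Sox10 are transcription factors that define the lineage. Cells that commit to differentiation lose Pdgfra, pass through a stage marked by the receptor Gpr17, and then switch on myelin genes. In mm10, Pdgfra lies on chromosome 5 (75152292 to 75198215), Cspg4 on chromosome 9 (56865033 to 56899870) and C1ql1 on chromosome 11 (102939264 to 102946688), per GENCODE M21. Olig1 lies on chromosome 16 (91269772 to 91271933) and Sox10 on chromosome 15 (79154908 to 79165240).

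The data go against the label for most members. Of the 682 members 511 had fewer than 3 UMIs of the 5 precursor genes other than C1ql1, and 450 of these met the minimum with C1ql1 alone, while 61 needed C1ql1 and another gene together. C1ql1, which encodes a secreted C1q-like protein, had at least 3 UMIs in 6573 of all kept barcodes. Exactly 1 UMI of Olig1 and Sox10 was present in 420 members. Members were therefore divided by the UMIs of Pdgfra, Cspg4, Neu4, Gpr17 and Lhfpl3, a division made after seeing the data. The 144 members with at least 5 such UMIs (46 standard, 98 FLASH) are called precursor-like, and the other 538 (244 and 294) are called C1ql1-led, a name for the group: 466 of them had at least 3 C1ql1 UMIs and 72 had fewer.

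Genes and markers outside the rule followed this division. No doublet caller was run, and 46 barcode sequences occurred in both libraries, 3 of them in members and 0 as members of both. Ptprz1, a receptor phosphatase of precursors, was detected in 6.92% of the 318 members with none of the 5 genes and in 7.25% of the 193 members with 1 or 2 UMIs. It was detected in 40.7% of the 27 members with 3 or 4 UMIs, in 87.5% of the 16 with 5 to 9, and in 100% of the 128 with 10 or more. At least 3 UMIs of 15 granule lineage markers (Atoh1, Zic1 and Neurod1 among them) were present in 97.8%, 99.5%, 66.7%, 18.8% and 24.2% of these groups. Their median load was 1.58 UMIs per 10000 in precursor-like members and 15.2 in C1ql1-led members. It was 28.4 in granule lineage barcodes (at least 3 marker UMIs, at most 2 precursor UMIs, no Olig1 or Sox10 UMI), 0.968 in myelinating barcodes and 1.13 in C1q myeloid barcodes. In endothelial barcodes it was 4.37 after standard and 5.53 after FLASH. The precursor-like load differed between the libraries, with medians of 2.12 and 1.47, and 8 of 46 against 8 of 98 members were above 8 per 10000. At least 3 granule lineage UMIs were present in 34.8% and 18.4% of them. The share and the genes were also compared without these members, as given below, and the source of this RNA was not tested. At the edge of the division stood 9 members with 4 UMIs and 7 with 5. At the edge of the rule, 150 members had a precursor sum of 3 and 116 a sum of 4, while 183 barcodes with a sum of 2 and 182 with a sum of 1 met its other parts. Barcodes with at least 5 UMIs of the 5 genes that stayed outside were 42 with no Olig1 or Sox10 UMI, 30 over the myelin limit and 2 over the limit for other cell types.

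**Figure D1:**
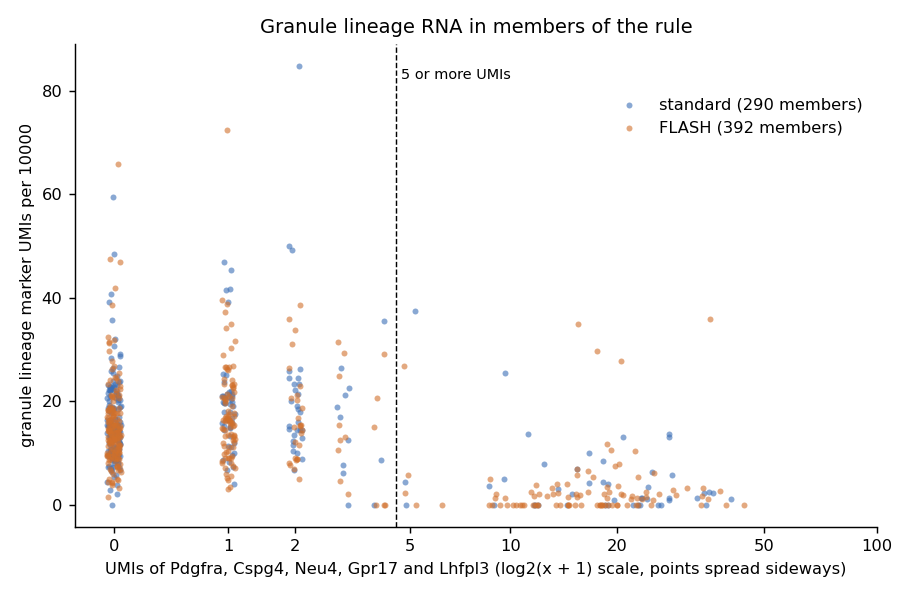
UMIs of the 5 precursor genes other than C1ql1 (x axis, log2(x + 1) scale) against granule lineage marker UMIs per 10000 UMIs (y axis) in each of the 682 members, coloured by library. Members left of the dashed line, with a median load of 15.2, lie above most members right of it, whose median is 1.58.

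C1ql1-led members had higher levels of the SHH genes Ptch1 and Gli1 than precursor-like members. Ptch1, the SHH receptor and a target of the pathway, stood at 653 and 721 CPM (counts per 1000000 UMIs of the class, here and below standard first and FLASH second) in C1ql1-led members, against 112 and 108 CPM in precursor-like members. Gli1, a transcription factor and target of SHH signalling, stood at 75.8 and 78.9 CPM against 13.3 and 9.22 CPM. Myelinating barcodes held Ptch1 at 55.9 and 112 CPM. Cre was detected in 62.3% and 53.1% of C1ql1-led members and in 13% and 15.3% of precursor-like members. The C1q myeloid barcodes, which should lack it, had a Cre UMI in 22.4% and 21.4%, at median depths of 6888 and 7316.5 UMIs against 7455.5 and 5964.5 UMIs in precursor-like members. The share of precursor-like members with a Cre UMI did not exceed that background. The SmoM2 transgene (SmoM2EYFP) was detected in 17.4% (7.82 to 31.4%) and 12.2% (6.49 to 20.4%) of precursor-like members. In C1q myeloid barcodes, with or without Olig1, it was detected in 2.66% (1.15 to 5.17%) and 2.65% (1.15 to 5.15%). With every barcode thinned to the same depth, the shares were 4.65% and 3.06% against 0.402% and 1.18%, and the intervals overlapped. The source of this RNA was not tested. The summed level of Cre in precursor-like members was 9 UMIs after standard and 58 UMIs after FLASH (log2 ratio 1.83, 0.87 to 3.09), with up to 16 UMIs in 1 cell, against a log2 ratio of -0.18 in C1ql1-led members.

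An Olig1 UMI in tumour lineage barcodes was more frequent than in C1q myeloid barcodes. Barcodes with granule lineage markers were taken here whether or not they held Olig1. They needed at least 5 marker UMIs, under 5 UMIs of the 5 genes other than C1ql1, and the rule's limit for other cell types. Of these 6429 and 7952 barcodes 6.16% after standard and 6.25% after FLASH had an Olig1 UMI. In C1q myeloid barcodes, also taken with or without Olig1, the shares were 1.33% and 2.32%. After thinning each barcode to 2000 UMIs the shares were 1.93% and 2.45% against 1.2% and 0%, so the order held in FLASH beyond the intervals (2.12 to 2.83% against 0 to 1.44%), and in standard the intervals overlapped. C1ql1-led members also differed from barcodes that met the rest of the rule without Olig1 or Sox10. Olig2 stood at 92.8 CPM against 13.9 CPM, Etv5 at 73.5 against 15.7 CPM, Sparcl1 at 187 against 70.1 CPM, Hes1 at 105 against 44.0 CPM and S100b at 46.8 against 13.9 CPM. Pdlim3 at 397 against 164 CPM, Nptx1 at 33.6 against 7.04 CPM and the mitotic gene Ube2c at 691 against 341 CPM differed too. Etv5 encodes an ETS factor, Hes1 a Notch effector and S100b a calcium-binding protein of glia. Their median depth was 9240.5 and 8117 UMIs against 7165 and 6491 UMIs, and at least 10 UMIs of G2 and M phase genes after thinning were found in 55.2% and 55.2% against 35.1% and 36.7%. The part of depth and cycling in these differences was not tested.

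Precursor-like members had the surface and matrix genes of oligodendrocyte precursors in both libraries. Pdgfra stood at 668 CPM (588 to 756) and 779 CPM (713 to 850) and was detected in 42 of 46 and 87 of 98 cells. Cspg4 stood at 240 CPM (193 to 295) and 352 CPM (308 to 401), and Lhfpl3, a tetraspan membrane protein, at 1006 and 1024 CPM. These genes chose the cells. Of genes outside the rule, Ptprz1 stood at 2013 and 2064 CPM, in 45 of 46 and 97 of 98 cells. The proteoglycan Cspg5 stood at 1432 and 1949 CPM, the calcium channel subunit Cacng4 at 498 and 572 CPM, and the matrix protein Tnr at 469 and 407 CPM. Fabp7, a lipid-binding protein shared with astroglia, stood at 1765 and 2539 CPM. C1ql1, which is in the rule, stood at 466 and 478 CPM in precursor-like members and at 485 and 507 CPM in C1ql1-led members. At least 3 C1ql1 UMIs were present in 77 of 144 and 466 of 538 members of these groups.

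Ranked by how far they stood above the highest of the granule lineage, myelinating, C1q myeloid and endothelial barcodes, the leading genes of precursor-like members were Cspg5, Fabp7, Ptprz1, Cacng4, Pdgfra, Cspg4, Brinp3, Pcdh15, Lhfpl3 and Tmem100. Pdgfra, Cspg4 and Lhfpl3 among them are in the rule. Cspg5 had 1760 CPM over both libraries against at most 7.26 CPM in those classes. Ptprz1 had 2045 CPM against at most 107 CPM, and Cacng4 had 545 CPM against at most 14.7 CPM.

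The lineage transcription factors were present in most precursor-like members. Olig1 stood at 934 and 1231 CPM and Sox10 at 296 and 338 CPM, and both were used by the rule. Olig2, which the rule did not use, stood at 453 and 530 CPM and was detected in 39 of 46 and 92 of 98 cells. Sox6, which holds precursors in the undifferentiated state, stood at 253 and 389 CPM and was detected in 38 and 84 cells. Nkx2-2, a factor of the start of differentiation, stood at 109 and 115 CPM, and Sox8 at 194 and 171 CPM.

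Among receptors, the AMPA receptor subunit Gria2 stood at 511 and 481 CPM, Ntrk2, the receptor of brain-derived neurotrophic factor, at 245 and 297 CPM, and the endothelin receptor Ednrb at 173 and 246 CPM. Pdgfb had 0 UMIs in precursor-like members, which at a floor of 3 counts allows up to 7.99 and 4.61 CPM. Pdgfa, the ligand that drives precursor division, stood at 79.9 and 95.3 CPM in precursor-like members. In C1ql1-led members Pdgfa stood at 193 and 205 CPM, and in myelinating barcodes at 417 and 430 CPM. Pdgfb was found in endothelial barcodes at 230 and 216 CPM.

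The 6 myelin genes of the rule summed to 24.0 and 26.1 CPM, a level the rule limits, in precursor-like members. Markers of other cell types were counted in precursor-like members, of which the rule itself limits C1qa, C1qb, Cldn5 and Col1a2. All 9 pericyte markers were at 0 in both libraries, and 9 of 10 endothelial markers were at 0 in each. The 12 microglia and macrophage markers summed to 13.3 and 32.3 CPM, with Mrc1 and Pf4 at 0 in both libraries. Of the 11 astrocyte markers, Aqp4, Gja1, Aldh1l1 and Agt were at 0 in both libraries, and the list's sum of 2252 and 2991 CPM was mostly Fabp7. The 15 granule lineage markers summed to 554 and 553 CPM. The 8 interneuron markers summed to 146 and 81.5 CPM, with Gad2 and Slc32a1 at 0 in both libraries. Of 7 Schwann cell markers 6 were at 0 in each library, Prx and Dhh among them. Of 8 fibroblast markers all were at 0 after standard and 7 after FLASH.

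**Figure D2:**
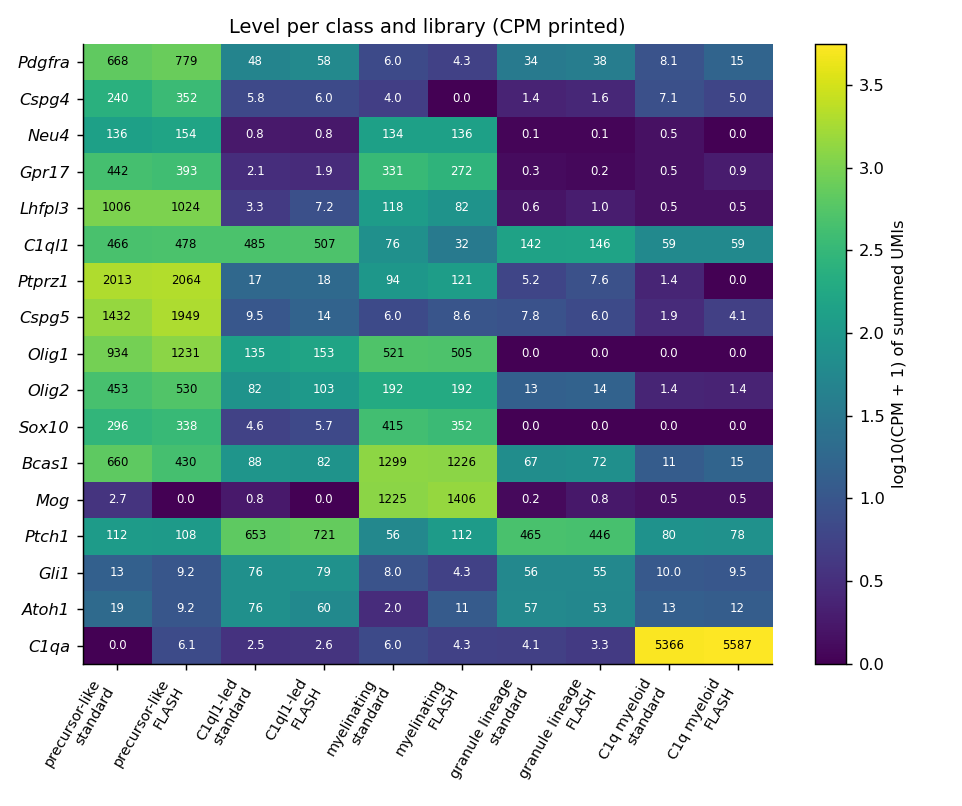
Level of 17 genes (CPM of summed UMIs, printed in each cell, colour on a log10(CPM + 1) scale) in 5 classes of barcodes and both libraries. Precursor-like members share Ptprz1, Cspg5 and Olig2 at high levels, while C1ql1-led members share Ptch1 with granule lineage barcodes. Classes are defined by some of these genes, so Olig1 and Sox10 are at 0 in granule lineage and C1q myeloid barcodes by definition.

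The share of precursor-like members was higher after FLASH. They were 46 of 8461 kept barcodes after standard, or 0.544% (exact Clopper-Pearson interval 0.398 to 0.725%), and 98 of 10366 after FLASH, or 0.945% (0.768 to 1.15%). The ratio was 1.74 (1.21 to 2.53), a log2 ratio of 0.80 (0.28 to 1.34). C1ql1-led members were 2.88% and 2.84% of kept barcodes, with a log2 ratio of -0.02 (-0.27 to 0.23). Myelinating barcodes were 47 in each library, or 0.555% and 0.453% (log2 ratio -0.29, -0.91 to 0.32). All members of the rule together were 3.43% and 3.78% (log2 ratio 0.14, -0.08 to 0.37).

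Under 13 other settings, 2 of which left the same barcodes, the log2 ratio lay between 0.40 and 1.12. The setting of at least 200 genes also left the same precursor-like members and changed only the number of kept barcodes. The log2 ratio of the share was above 0 in all settings. It was smallest where no UMI of Olig1 or Sox10 was needed, with 71 barcodes after standard and 115 after FLASH, and there the interval reached 0 (0.40, -0.04 to 0.85). With no myelin limit, 62 and 112 barcodes gave 0.56 (0.10 to 1.03). With 1 library per group, the preparation of the cells and the mode of irradiation cannot be told apart.

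**Figure D3:**
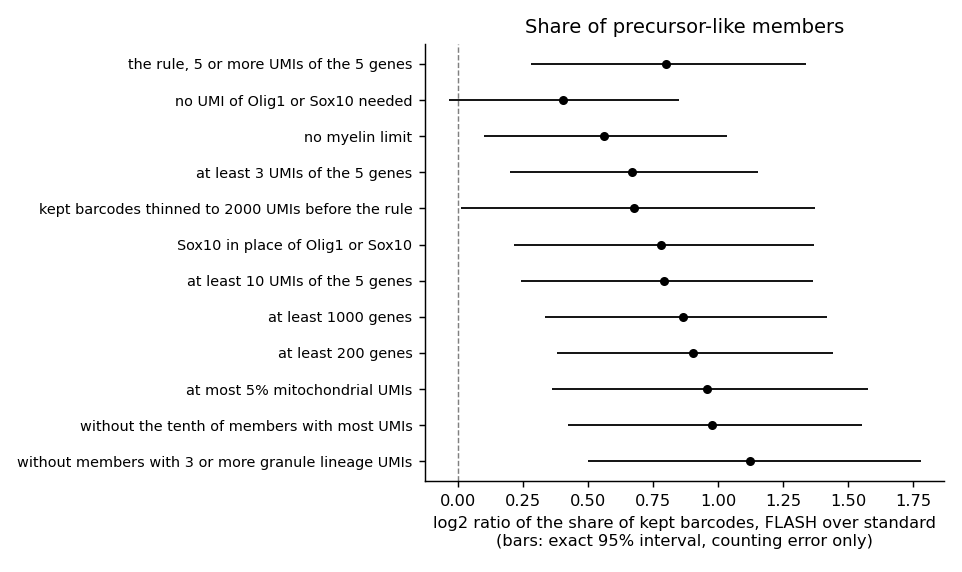
Log2 ratio of the share of precursor-like members among kept barcodes, FLASH over standard (x axis), under the rule and 11 other settings, with exact 95% intervals for counting error. All points lie above 0 (0.40 to 1.12), and the interval reaches 0 where no Olig1 or Sox10 UMI is needed.

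Within the precursor-like members a small end was led by Gpr17. A member was called Gpr17-led where Gpr17 had at least 3 UMIs and more than Pdgfra and Cspg4 together, and Pdgfra/Cspg4-led where those had more. This is a range cut from counts, not a pair of types: 33 of 46 and 70 of 98 members held both, and 5 and 9 members lay within 1 UMI of the cut. Gpr17-led members were 10 of 46 after standard, or 21.7% (10.9 to 36.4%), and 14 of 98 after FLASH, or 14.3% (8.04 to 22.8%). The log2 ratio of these shares was -0.61 (-1.88 to 0.73), so no difference was detectable at this number of cells. Pdgfra/Cspg4-led members were 33 and 80. Of all members of the rule, 3.45% and 3.57% were Gpr17-led.

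Of 1821 genes counted in precursor-like members, 153 (8.4%) were at least 1.5-fold higher in the 24 Gpr17-led members of both libraries and 226 (12.4%) at least 1.5-fold lower than in the 113 Pdgfra/Cspg4-led members. Of the 20 committed precursor genes 7 were counted besides Gpr17, and all 7 were at least 1.5-fold higher in Gpr17-led members (median log2 ratio 1.95). Neu4 among them is in the rule. Of 13 counted surface and matrix genes 2 were at least 1.5-fold higher and 8 at least 1.5-fold lower. Cnp, an early enzyme of myelin-forming cells, stood at 853 against 124 CPM (log2 ratio 2.78, 2.42 to 3.16). Bcas1, which marks cells that start myelination, stood at 1551 against 239 CPM (2.70). Lims2, an adhesion adaptor, was higher by 2.73 and the sialidase Neu4, itself in the rule, by 2.28. Nkx2-2 and the deacetylase Sirt2 were higher by 1.97 and 1.95. Ap2a1, Pfn2, Cyfip2, S100b, Dynll2 and S100a6 made up the rest of the 12 highest, with log2 ratios from 1.82 to 2.41. Each of these 12 genes was higher in both libraries.

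Genes with fewer counts showed the same end. Bmp4, a secreted signal of committed precursors, had 65 UMIs in 15 of the 24 Gpr17-led members and 2 UMIs in the 113 others (log2 ratio 6.58, 4.98 to 9.97). Enpp6, an enzyme of newly formed oligodendrocytes, had 39 UMIs in 11 of the 24 and 2 UMIs in the 113. Both are in the list of committed precursor genes, and both were under the 100-UMI minimum for the 12 highest.

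Spry1, a feedback inhibitor of receptor tyrosine kinases, was among the genes lower in Gpr17-led members, with 3 UMIs, all in 1 cell, against 136 UMIs (log2 ratio -3.42, -5.93 to -2.06). Pou3f1 had a log2 ratio of -3.31, the potassium channel partner Kcnip3 -3.79 and the protease Mmp15 -2.83. Ccnd1, the cyclin of G1 phase, stood at 160 against 983 CPM (-2.60, -3.16 to -2.12) and Cspg5 at 410 against 2131 CPM (-2.37). Vim (-2.38), Cdo1 (-2.42), Ebf1 (-2.35) and Plpp3 (-2.84) were lower too. Fam212b had 1 UMI against 100 (-4.20, -10.09 to -2.26), and Gfod2 3 UMIs against 143. Etv5 had 0 UMIs in Gpr17-led members and 63 in the others, and the Notch target Hes5 had 2 and 90.

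Other genes stayed near level between the ends. Sox10 had a log2 ratio of 0.33 (-0.07 to 0.69), Sox6 0.27 (-0.12 to 0.62) and Gria2 0.03 (-0.30 to 0.34), intervals that include 0. Tnr (1.02, 0.72 to 1.31) and the matrix proteoglycan Vcan (0.79, 0.45 to 1.12) were higher in Gpr17-led members, while Olig1 was lower (-1.08, -1.37 to -0.81). Over all members of the rule the same split called 21.6% of 4106 genes higher and 20.6% lower, but 316 members were then Pdgfra/Cspg4-led, most of them C1ql1-led barcodes with granule lineage RNA.

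**Figure D4:**
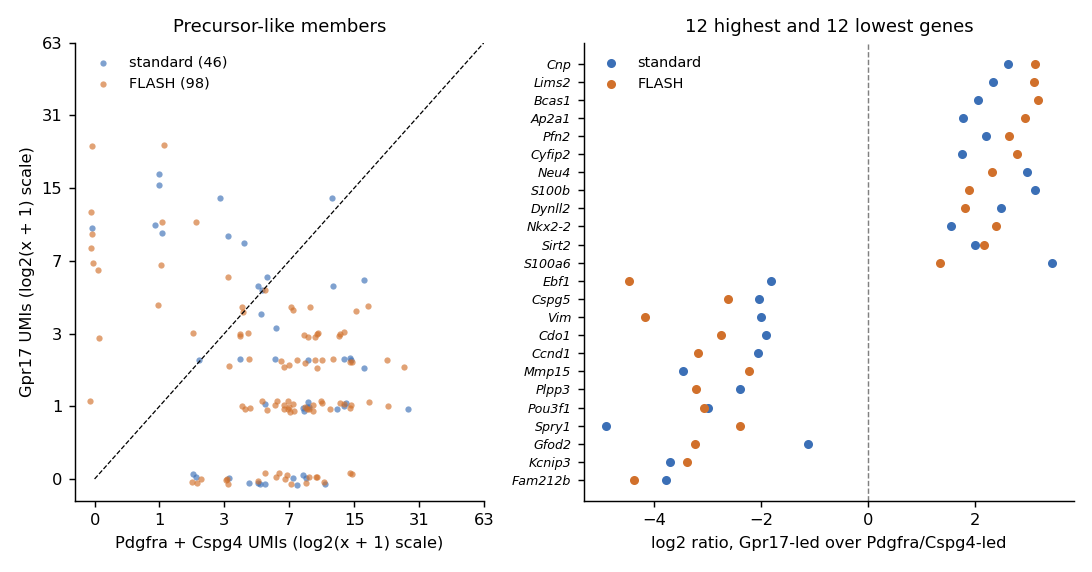
Left, Gpr17 UMIs against the sum of Pdgfra and Cspg4 UMIs in each precursor-like member (log2(x + 1) scales, 46 standard and 98 FLASH). Right, log2 ratio of Gpr17-led over Pdgfra/Cspg4-led members in each library for the 12 highest and 12 lowest genes, where the points of both libraries lie on the same side of 0 for all 24.

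Division was read from 51 genes of the G2 and M phases, counted after thinning each barcode to 2000 UMIs. A minimum of 3 UMIs was met by 63.4% and 57.6% of myelinating barcodes, which do not divide, and by 37.2% and 36.3% of C1q myeloid barcodes. Precursor-like members met it in 72.1% and 68.4%, with intervals that overlapped those of myelinating barcodes. At 10 UMIs, a minimum chosen after seeing this, 1 of 41 and 4 of 33 myelinating barcodes passed. These were 2.44% (0.0617 to 12.9%) and 12.1% (3.40 to 28.2%). Of precursor-like members 10 of 43 passed after standard, or 23.3% (11.8 to 38.6%), and 15 of 98 after FLASH, or 15.3% (8.83 to 24.0%). The log2 ratio was -0.60 (-1.85 to 0.71), so a difference was not detectable with these cells. Without thinning 69.6% and 55.1% passed, and 5 and 8 members lay within 3 UMIs of the minimum. After thinning, the interval of precursor-like members overlapped that of myelinating barcodes in each library. Of C1q myeloid barcodes 12 of 242 and 24 of 245 passed, or 4.96% (2.59 to 8.50%) and 9.80% (6.38 to 14.2%). The C1q myeloid interval lay below that of precursor-like members after standard and overlapped it after FLASH. Of C1ql1-led members 55.2% passed in each library. With the planned minimum of 3 UMIs, 90.5% and 87.1% of all members passed.

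Precursor-like members were then compared between the libraries. Of 1911 genes with at least 100 UMIs in both libraries together and at least 50 CPM in 1, 37 (1.94%) were at least 1.5-fold higher after FLASH and 29 (1.52%) at least 1.5-fold lower. In C1ql1-led members these were 4 (0.116%) and 8 (0.232%) of 3455, and in granule lineage barcodes 0 (0%) and 3 (0.087%) of 3449. Precursor-like members had fewer UMIs in all (375608 and 650627), so their ratios have wider counting error.

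Of 19 counted G2 and M phase genes, 17 lay below 0 and 9 were at least 1.5-fold lower after FLASH, with a median log2 ratio of -0.56 against 0.007 over all 1911 genes. Mki67, the proliferation marker, stood at 349 and 183 CPM (-0.93, -1.30 to -0.56) and was detected in 16 of 46 and 22 of 98 cells. The kinetochore motor Cenpe stood at 176 and 56.9 CPM (-1.62), the spindle factor Tpx2 at 208 and 72.2 CPM (-1.52) and Cenpf at 349 and 149 CPM (-1.22). Cks2, Prc1, Cenpa and Ube2c, all of mitosis, had log2 ratios of -1.21, -0.84, -0.82 and -0.81.

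Few cells carried these counts. After standard irradiation 5 of 46 members held 70.4% of the 2608 G2 and M phase UMIs, and after FLASH 5 of 98 held 44.7% of 2946. The median member was nearer between the libraries, at 19.9 and 17.1 such UMIs per 10000. Without the cycling members the median of the list was -0.01 and 11 genes in place of 29 were lower. Without the 5 members with most UMIs of each gene, which removes a larger share of the 46, the median of the list was 0.41, and without the tenth with most UMIs of each gene it was -0.28. The direction also turned where every barcode was thinned to 2000 UMIs before the rule, with Mki67 at 1.15 and Cenpe at 1.32. These ratios were taken there with no minimum of counts. The cycling share of that setting had a log2 ratio of 1.0 with a wide interval (-1.33 to 4.27). In C1ql1-led members 47 counted genes of the list had a median of -0.04.

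None of the 15 counted surface and matrix genes passed 1.5-fold between the libraries. Of them 13 lay above 0 (median 0.20), against 973 of all 1911 genes, and Pdgfra, Cspg4, Lhfpl3 and C1ql1 in the list are in the rule. Cspg4 had a log2 ratio of 0.55 (0.20 to 0.92), Cdo1, a cysteine oxidase, 0.51 (0.08 to 0.97), Ednrb 0.50 (0.08 to 0.95) and Cspg5 0.44 (0.30 to 0.59). Pdgfra had 0.22 (0.00 to 0.45). The median turned to -0.05 without members with 3 or more granule lineage UMIs and to -0.07 after thinning. Of 11 counted lineage factors 8 lay above 0 (median 0.07), with Sox6 at 0.62 (0.27 to 0.98), Sox4 at 0.46 and Olig1 at 0.40. Olig1 and Sox10 among the 11 are in the rule.

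Of 8 counted committed precursor genes 5 lay below 0 (median -0.12), against 938 of all 1911 genes, and Bcas1 alone passed 1.5-fold. Gpr17 and Neu4 among the 8 are in the rule. Bcas1 stood at 660 and 430 CPM (-0.62, -0.87 to -0.37). Gpr17 itself stood at 442 and 393 CPM (-0.17, -0.46 to 0.12). Enpp6 had 31 UMIs in 5 of 46 cells after standard and 10 UMIs in 8 of 98 cells after FLASH (-2.38, -3.62 to -1.36), under the 100-UMI minimum. With Gpr17-led and other members held to the same mix in both libraries, Bcas1 was at -0.07 and the list's median at 0.40.

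Among the other genes that were highest after FLASH, Fam213a, a redox protein, was detected in 16 of 46 and 60 of 98 precursor-like members and had 58.6 and 140 CPM (1.23, 0.57 to 2.0). Ccnd3, a cyclin of G1 phase, had 58.6 and 121 CPM (1.03, 0.35 to 1.80). Spry1 had 87.9 and 172 CPM (0.96, 0.40 to 1.58), Ly6h 0.91, Pou3f1 0.82, Tmem50a 0.82, Arxes1 0.79 and Tmem176a 0.78 on the log2 scale. Gfod2 had the highest ratio, 18.6 and 214 CPM (3.42, 2.44 to 4.86), but 128 of its 139 UMIs after FLASH lay in 5 cells and 57 of them in 1 cell. Mbp, a myelin gene, had 71.9 and 158 CPM (1.12). Mbp also stood at 127 and 162 CPM in granule lineage barcodes and at 740 and 939 CPM in barcodes under the gene minimum. The part of free RNA in the precursor-like level was not tested. The long noncoding RNA Miat (-0.85) and the nucleotide synthesis enzyme Impdh2 (-0.79) completed the 10 lowest.

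The p53 targets, which radiation damage is known to raise, were mostly too few to count. Only Bax and Ccnd2 passed the 100-UMI minimum, at -0.04 and 0.14. With a minimum of 30 UMIs, added after seeing the data, 13 were counted, 7 above 0 and 6 below (median 0.08). Of all 5779 genes at this minimum 2927 lay above 0 and 2852 below (median 0.007). Cdkn1a, the p53-driven inhibitor of the cell cycle, had 11 UMIs in 7 of 46 cells and 52 UMIs in 19 of 98 cells (1.40, 0.49 to 2.54), and 34 of the 52 lay in 5 cells. Without the cycling members its log2 ratio was 0.24. Phlda3 (0.93, 0.25 to 1.72) and Plk2 (1.06, 0.27 to 1.99) were higher, while Zmat3 (-1.49, -2.58 to -0.49) and Btg2 (-0.99, -1.70 to -0.29) were lower. The counted targets thus lay on both sides of 0.

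Of the immediate early and heat shock genes 3 of 10 lay above 0 (median -0.15), with Ier2 at 0.54, Egr1 at 0.38 and Fos at -0.27. Fos stood at 1379 and 1147 CPM in precursor-like members, against 162 and 98.9 CPM in C1ql1-led members and 1013 and 920 CPM in C1q myeloid barcodes. All 3 counted genes of the ATF4 stress branch lay above 0 (Slc3a2 0.71, Phgdh 0.42, Atf4 0.34), where Slc3a2 alone passed 1.5-fold. With the 30-UMI minimum 11 of 13 lay above 0, 5 were at least 1.5-fold higher and 1 lower (median 0.56). Of all 5779 genes at this minimum 2927 lay above 0, 439 were at least 1.5-fold higher and 418 lower (median 0.007). Eif4ebp1, a translation repressor, had 4 UMIs after standard and 31 after FLASH (2.01, 0.66 to 4.12), 11 of them in 1 cell. In granule lineage barcodes all 11 ATF4 genes counted at 100 UMIs lay above 0 (median 0.34), against 1793 of all 3449 genes. In C1ql1-led members 8 of 12 lay above 0 (median 0.045), against 1856 of all 3455 genes. Of 6 sterol and fatty acid genes counted in precursor-like members 4 lay above 0 (median 0.20), with Idi1 at 0.55. Of 4 counted growth factor and inhibitory receptors, Pdgfra of the rule among them, 3 lay above 0 (median 0.25). Of 5 counted myelin genes 3 lay above 0 (median 0.06). Of 13 counted neurotransmitter receptor and adhesion genes 8 lay above 0 (median 0.20), and Gria4 had -0.43 (-0.90 to 0.04). H2-D1, a class I MHC gene, had -0.49 (-1.0 to 0.03). S phase genes counted were 3, with Mcm7 at -0.58, and Ccnd1, the SHH target counted besides Ptch1, had 0.54 (0.32 to 0.77).

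**Figure D5:**
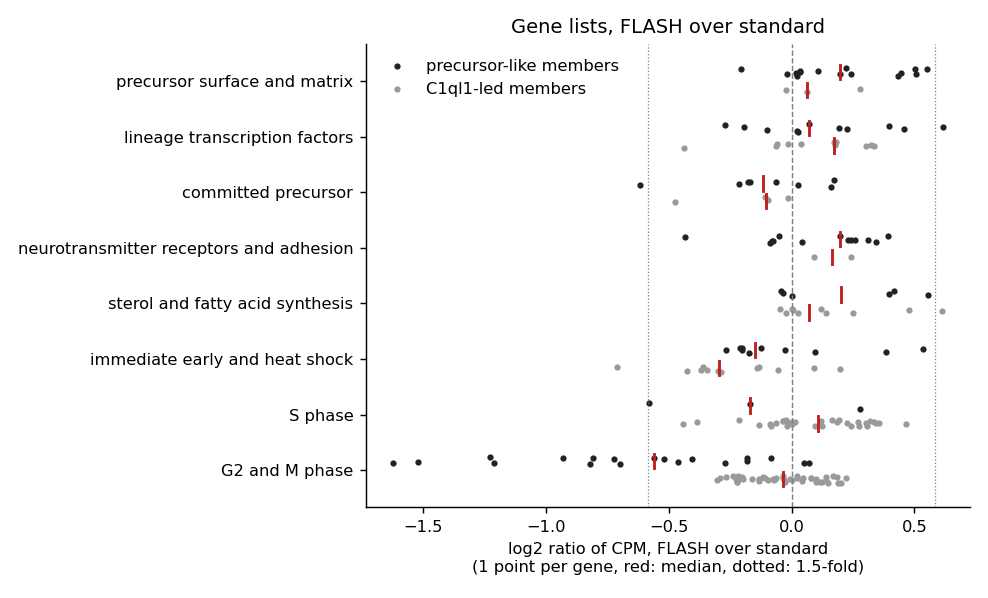
Log2 ratio of CPM, FLASH over standard (x axis), for each counted gene of 8 lists in precursor-like members (black) and C1ql1-led members (grey), with medians in red and the 1.5-fold limits dotted. The G2 and M phase genes of precursor-like members lie mostly below 0, with a median of -0.56, while those of C1ql1-led members centre near 0.

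Over all members of the rule, 43 of 3593 genes (1.2%) were at least 1.5-fold higher and 6 (0.167%) at least 1.5-fold lower after FLASH. The 10 highest were Ly6h, Sox6, Phlda1, Fabp7, Kcnip3, Cspg4, Cspg5, Cdo1, Pcsk1n and Ednrb, with log2 ratios from 0.89 to 1.27, and precursor genes stand among them. Precursor-like members made up 15.9% of members after standard and 25% after FLASH. With precursor-like and C1ql1-led members held to the same mix in both libraries, 7 genes in place of 43 were higher. The 10 lowest were Sox18 (-1.04), Hist1h4d (-0.83), Hist1h3e, Btg2, Cdkn1c, Hist2h2ac, Mllt11, Hist1h2bj, Zfp512 and Usp5, the last at -0.53. Sox18 stood at -0.95 in C1ql1-led members and -0.61 in granule lineage barcodes, so its difference was not particular to members of the rule. Of the 249 Cdkn1c UMIs after standard, 101 lay in 1 member.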

How the data were processed

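Single-cell RNA libraries of tumour tissue, 1 after standard and 1 after FLASH proton irradiation, were analysed. The deposited matrices hold raw UMI counts per gene and barcode, made by Cell Ranger (version 6.1.2 per the file headers) on mm10, per the submitters' processing notes. No annotation release is stated, and coordinates are those of GENCODE M21 on mm10. The libraries held 12867 and 14269 barcodes, and kept barcodes had a median of 5700 and 5329.5 UMIs.

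UMIs of a class were summed per library and given as CPM with exact Poisson intervals. Log2 ratios were taken after adding 0.5 counts, with exact conditional binomial intervals, and shares have exact Clopper-Pearson intervals. All are at 95% and cover counting error only. Genes needed 100 UMIs over both libraries and 50 CPM in 1, and a gene was called past 1.5-fold. No p-value was computed with 1 library per group. Cells were neither clustered nor passed through a doublet caller. Thinning drew 2000 UMIs per barcode and left out shallower barcodes.

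The 10 highest and 10 lowest ratios (12 each between the Gpr17-led and Pdgfra/Cspg4-led ends) were named, without mitochondrial, ribosomal, haemoglobin, immunoglobulin, sex-linked and unnamed genes, with the 3 largest of each list. The members and lists were chosen with earlier results of these data known. The division into precursor-like and C1ql1-led members, the 10-UMI cycling minimum and the 30-UMI list minimum were chosen after seeing the data. The ratio step was tested on simulated counts. The thinning step was checked on the members after standard irradiation, only for leaving 2000 UMIs in each barcode. Python 3.11.15, numpy 2.4.6, scipy 1.17.1, pandas 2.3.3 and matplotlib 3.10.9 were used.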

Additional observations from a re-analysis of the deposited data

How the results depend on the processing

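No paired analysis was possible because each group has 1 library. Shares and genes are given as log2 ratios, FLASH over standard, and counts are genes past 1.5-fold. Where a direction turned, the cause was not tested. Of the values recomputed for single genes and lists, 1114 stayed close, 254 moved and 29 turned direction. Only values past 1.5-fold at the main setting could be counted as turned. Smaller values that changed sign are among those that stayed within limits or moved. Settings for precursor-like members by cycling, by the tenth with most UMIs of each gene, by the mix with C1ql1-led members and without Olig1 or Sox10 were added after seeing the data.

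Over all members, 5 UMIs of the 6 genes gave 86 higher and 28 lower genes. With 2 of the 6 genes detected, the share was 0.48, 24 genes were lower and Cdkn1c was at 0.17. With Sox10 required, the share was 0.59, 89 genes were higher, 75 lower and Cdkn1c was at 0.28. Without members with 3 or more granule lineage UMIs, the share was 0.99, 19 genes were lower, and Sox18, Hist1h3e and Cdkn1c were at 1.02, 1.42 and 1.14. Without the tenth of members with most UMIs, 90 were higher and 13 lower. With barcodes thinned before the rule, the share was 0.78, 9 genes were higher and 14 lower, and Cdo1, Pcsk1n and Hist1h3e were at -0.13, -0.029 and 1.01. Without the 5 members with most UMIs of each gene, 66 were higher and Cdkn1c was at 0.076. Thinned members gave 30 lower, no low count filter 2758 higher and 1893 lower, and the same mix of precursor-like and C1ql1-led members 7 higher.

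In precursor-like members, the share was 0.40 with no Olig1 or Sox10 UMI needed. Lower genes numbered 18 without members with 3 or more granule lineage UMIs (Miat at 0.040), 12 without the tenth with most UMIs and 11 without cycling members (Ube2c at 0.36). With barcodes thinned before the rule, the cycling share was at 1.0 (-1.33 to 4.27), 6 genes were higher and 8 lower, and Mbp, Ly6h, Cenpe, Tpx2, Cenpf, Mki67, Prc1 and Cenpa were at -0.89, -0.25, 1.32, 0.10, 1.63, 1.15, 1.81 and 2.17. Without the 5 members with most UMIs of each gene, a larger share of the 46 than of the 98, 396 genes were higher and 2 lower, and Cenpf, Cks2, Mki67, Prc1, Cenpa, Ube2c and Enpp6 were at 0.022, 0.64, 0.50, 1.76, 0.51, 0.91 and 2.01. Without the tenth with most UMIs of each gene, 113 were higher, 49 lower and Ube2c was at 0.041. Per-cell CPM gave 71 higher and 5 added counts 15 higher. Thinned members gave 11 higher and 4 lower, with Arxes1 at -0.040 and Ube2c at 0.079. No low count filter gave 3040 higher and 2813 lower, and a 200-UMI minimum 6 and 7. Depth limits the precursor-like members most, with 375608 and 650627 UMIs in all.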
